A study of Mus musculus with 3 samples.

Results

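Isl1, a transcription factor of the LIM-homeodomain class, marks progenitors of the second heart field. ChIP-Seq, in which sheared crosslinked chromatin is pulled down with an antibody and sequenced, was used to find where it sat in cardiac progenitor cells (CPCs). The regions described here are the Isl1 peaks with midpoints over 1 kb and up to 10 kb downstream of a transcription start site (TSS). They were chosen by the signed distance that the authors' list gives from each peak to its closest TSS, and 856 of 14082 distinct peaks met this rule. The CPCs came from mouse E14 embryonic stem cells (ESCs) that carry an Nkx2-5 GFP reporter (Tg(Nkx2–5-EmGFP)), which were differentiated with BMP4, Activin A and growth factors and collected at day 5. The 2 ChIP replicates and 1 input sample, chromatin taken before the pulldown, were all from these cells, with no Isl1-deficient or other control cells among them. The list combined both ChIP replicates and held no read numbers, so the depth is unknown here, no replicate error can be given, and the intervals and tests cover only counting error within 1 list. The list carries no expression values, so the identity of the cells could not be checked against marker genes.

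LIM-homeodomain proteins contact DNA through a homeodomain that prefers AT-rich sites with a TAAT core, and reach chromatin together with cofactors and other transcription factors. The first 10 kb of a gene hold its first exons and introns, where CpG islands, regulatory introns and alternative promoters are common. CpG islands are stretches in which the CpG dinucleotide, depleted in most of the mammalian genome, is retained, and in genes of developmental regulators they often run on from the promoter into the coding sequence.

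The stretches below show 1 kind of sequence under these peaks. Of the 856 peaks, 199 were single-copy, CpG-island-like (both defined below) and centred in coding exons, as the 4 printed here were. The 4 are the central 200 bp of peaks within genes of cardiac transcription factors, which is where most peaks of such genes fell. All are mm9 sequence written 5′ to 3′ along the strand of the assigned gene, and capitals mark CpG dinucleotides.
Nkx2-5, chr17:26976155-26976354, minus strand: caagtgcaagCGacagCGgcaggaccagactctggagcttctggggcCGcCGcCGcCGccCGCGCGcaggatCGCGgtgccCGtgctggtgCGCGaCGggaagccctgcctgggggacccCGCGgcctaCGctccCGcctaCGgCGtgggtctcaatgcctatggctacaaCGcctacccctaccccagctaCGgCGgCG
Gata4, chr14:63859612-63859811, minus strand: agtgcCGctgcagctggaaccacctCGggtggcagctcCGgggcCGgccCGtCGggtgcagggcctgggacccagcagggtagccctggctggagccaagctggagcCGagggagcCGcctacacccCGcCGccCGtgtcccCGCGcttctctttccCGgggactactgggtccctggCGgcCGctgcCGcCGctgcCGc
Tbx1, chr16:18582340-18582539, minus strand: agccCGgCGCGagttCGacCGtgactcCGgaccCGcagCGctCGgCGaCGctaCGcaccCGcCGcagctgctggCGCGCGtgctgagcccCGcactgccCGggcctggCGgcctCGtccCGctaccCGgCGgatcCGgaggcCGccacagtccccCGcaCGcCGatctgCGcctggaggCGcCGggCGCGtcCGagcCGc
Tbx2, chr11:85651640-85651839, plus strand: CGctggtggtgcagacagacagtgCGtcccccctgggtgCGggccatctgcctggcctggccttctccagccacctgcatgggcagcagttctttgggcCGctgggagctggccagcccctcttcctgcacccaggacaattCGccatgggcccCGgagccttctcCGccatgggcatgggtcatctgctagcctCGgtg
The Nkx2-5 stretch lay in coding exon sequence, with a GC content of 72.5% and 25 CpG dinucleotides. The Tbx1 stretch was also coding and held 36, and the Gata4 stretch held 19. The Tbx2 stretch held 8, the lowest number of the 4 cardiac genes.

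Peak width ranged from 313 to 3444 bp, with a median of 847.5 bp and quartiles of 655 and 1154.5 bp. The peaks spanned together 840 kb on 20 chromosomes, with most on chromosome 7 (97 peaks), 21 on chromosome X and 0 on chromosome Y. The widest peak, of 3444 bp, lay 6195 bp downstream of the Tmem259 TSS. Its midpoint was in a noncoding exon annotated to ORF61, an older symbol of Tmem259. The next was assigned to Irf2bpl, with 3405 bp at 1330 bp. The third, of 3249 bp, was assigned to 2310011J03Rik at 7838 bp, but its midpoint lay in a coding exon of Apc2, a relative of the Wnt pathway gene Apc. At the lower distance limit, the Trim71 peak at 999 bp fell just outside the group and the Ccsap peak at 1001 bp just inside. At the upper limit, the Otp peak at 9970 bp was just inside and the Slc14a2 peak at 10017 bp just outside.

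GC content of the central 200 bp averaged 65.4% ± 8.35 (SD over 856 peaks), against 48.6% and 48.3% in equally long windows centred 2 kb away on each side. A peak was called CpG-island-like when its GC content exceeded 50% and its observed to expected CpG ratio exceeded 0.6. This held for 364 peaks (42.5%, 95% Wilson interval 39.3% to 45.9%), near the 45.6% of all peaks in the list. A peak was called multi-copy when the 31-base words of its central 200 bp occurred at a median of at least 2 places in the genome. There were 263 such peaks (30.7%, interval 27.7% to 33.9%), against 46.5% of all peaks.

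These properties divided the peaks into 3 groups of comparable size. Single-copy CpG-island-like peaks numbered 349, with a median width of 1008 bp, and 199 of them were centred in coding exons. Single-copy peaks that were not CpG-island-like numbered 244, with a median width of 739 bp, of which 117 were centred in coding exons and 87 in introns. Multi-copy peaks without CpG-island-like sequence numbered 248, with a median width of 750.5 bp, and 161 of them were intronic. The remaining 15 peaks were both CpG-island-like and multi-copy. Copy numbers among the 263 multi-copy peaks were broad. The median was 51.5 copies, 84 peaks had from 2 to fewer than 10 copies and 70 had 1000 or more. Reads from such sequence can fit several places in the genome, which makes the position of these peaks less certain. How many reads did so was not measured. Peaks of 1 repeat family are also not independent of each other.

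**Figure D1:**
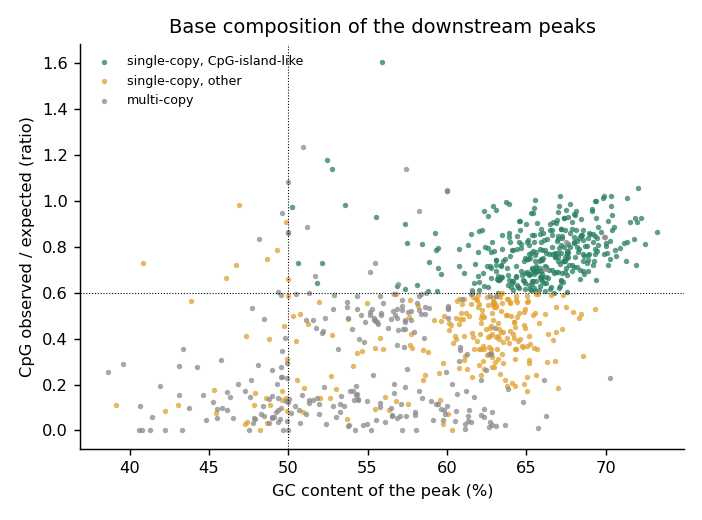
Each point is 1 of the 856 peaks, with its GC content in percent on the horizontal axis and its ratio of observed to expected CpG on the vertical axis. Dotted lines mark the limits of 50% and 0.6. The 349 single-copy CpG-island-like peaks form a dense group at high GC content, the 244 other single-copy peaks lie mostly below the horizontal line, and the 263 multi-copy peaks are spread toward low GC content and low CpG ratios.

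The sequence class changed with distance from the TSS. CpG-island-like sequence made up 73.1% of the 182 peaks at 1 to 2 kb (interval 66.2% to 79.0%). It made up 54.7% of 106 peaks at 2 to 3 kb, 37.1% of 210 at 3 to 5 kb and 30.5% of 174 at 5 to 7.5 kb. At 7.5 to 10 kb it was 22.8% of 184 peaks (interval 17.4% to 29.4%). The multi-copy share moved the other way, from 14.3% (interval 9.94% to 20.1%) at 1 to 2 kb to 46.2% (interval 39.1% to 53.4%) at 7.5 to 10 kb. The upstream peaks showed the same order, with CpG-island-like sequence in 50% at 1 to 2 kb and 22.5% at 7.5 to 10 kb, and multi-copy sequence in 21.4% and 63.4%. The number of downstream peaks per kb was 182 in the first kb and from 69.6 to 106 per kb in the later intervals. Some of the near peaks reached toward the promoter itself. The peaks of Irf2bpl, Inhbb, Nsd1 and Irx3, among others named here, were wide enough to span the assigned TSS. Their widths were 3405, 2672, 3246 and 2306 bp, with midpoints at 1330, 1108, 1576 and 1069 bp. In 118 peaks (13.8%) the near edge lay within 1 kb of the assigned TSS, and 84.7% of these were CpG-island-like, compared with 35.8% of the other 738.

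**Figure D2:**
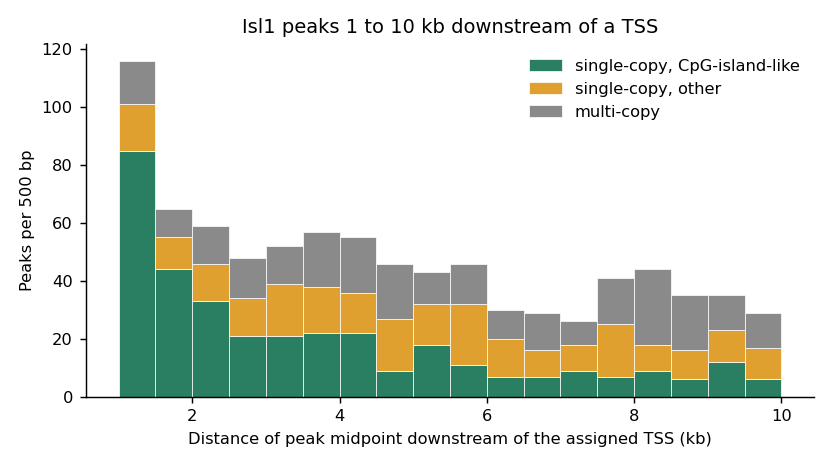
Number of peaks per 500 bp (vertical axis) by the distance of the peak midpoint downstream of the assigned TSS in kb (horizontal axis), stacked by sequence class. Single-copy CpG-island-like peaks are most of the first bars, and multi-copy peaks take a larger share farther out, in step with the rise from 14.3% to 46.2%.

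To see where in the genes the peaks lay, midpoints were placed on the GENCODE annotation of the same assembly. Introns held 349 midpoints (40.8%) and coding exons 327 (38.2%, interval 35.0% to 41.5%). The rest were intergenic (122), in untranslated exon parts (35) or in noncoding exons (23). By gene symbol, 600 midpoints lay in a transcript of the assigned gene, 134 only in a transcript of another gene and 122 in none. Symbols were matched as written, so a gene under an older name counted as another gene, as Tfap2b did with Tcfap2b. The 134 is therefore too high and the 600 too low, by a number that was not determined. For 665 peaks a transcript under the assigned symbol started within 100 bp of the TSS that the list implies. Of these, 163 (24.5%) were in the first intron, 132 in a later intron, 94 in exon 2 and 23 in exon 1. First introns were therefore the most frequent single place, but held fewer than 1 in 4 of the peaks that could be placed.

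Coding-exon and intronic peaks carried different sequence. Multi-copy sequence was found in 11 of 327 coding-exon peaks (3.36%) and in 170 of 349 intronic peaks (48.7%), with the odds ratio at 0.0367 (Fisher exact test, two-sided, p = 4.09e-46). CpG-island-like sequence was found in 61.5% of coding-exon peaks and 28.9% of intronic peaks (odds ratio 3.92, exact p = 1.66e-17). Among single-copy peaks alone the second odds ratio was 1.61 (exact p = 0.0135). Median widths were 1004 bp in coding exons and 746 bp in introns. This pair of tests was chosen after the values were seen, and the copy number of unbound coding and intronic sequence was not measured.

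**Figure D3:**
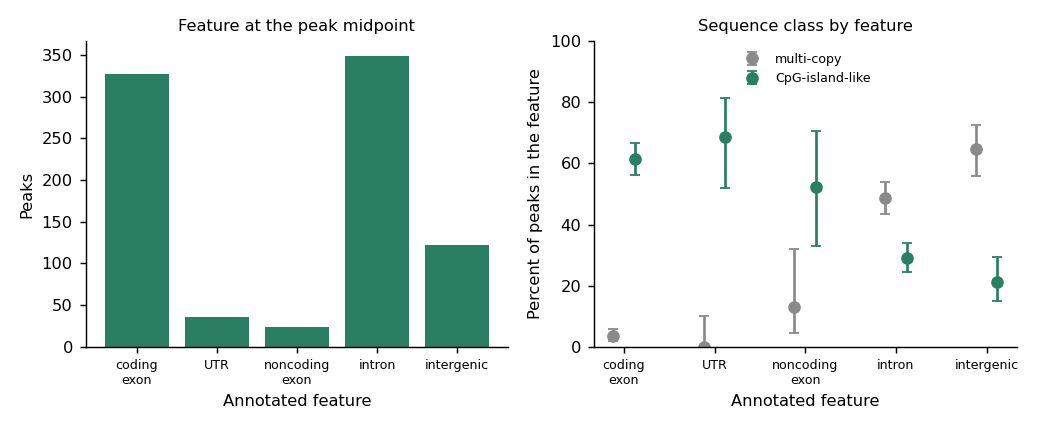
Left, the number of peaks whose midpoint lay in each annotated feature. Right, the percent of peaks in each feature that were multi-copy (grey) or CpG-island-like (green), with 95% Wilson intervals; multi-copy sequence is at 3.36% in coding exons and 48.7% in introns.

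For a background, 1 kb windows were laid from 1 to 10 kb downstream of 1 TSS per protein-coding gene, leaving out windows with an annotated TSS within 1 kb of the centre. Of the 179180 windows, from 22211 genes, 0.565% were CpG-island-like and 4.71% were centred in coding sequence. A peak of any class had its midpoint in 235 of the 1012 CpG-island-like windows (23.2%, interval 20.7% to 25.9%) and in 0.275% of the other 178168. Among CpG-island-like windows the share was 32.5% of the 385 with a coding centre (interval 28.0% to 37.3%) and 17.5% of the 627 with a noncoding centre (interval 14.8% to 20.7%). Among the other windows it was 1.25% with a coding centre and 0.229% with a noncoding one. Windows of neighbouring genes overlap, and these shares are given as a description without a test.

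Peaks at the same distances upstream of a TSS, 617 in number, were the closest comparison. They were multi-copy more often, at 302 of 617 (48.9%) against 30.7% downstream (odds ratio 0.463, Benjamini-Hochberg adjusted exact p = 2.21e-12, two-sided Fisher exact test over 9 comparisons). The downstream share was lower by 13.2 to 23.2 percentage points (95% Newcombe interval). CpG-island-like sequence was more frequent downstream, at 42.5% against 31.4% (odds ratio 1.61, adjusted exact p = 2.14e-05). Among single-copy peaks alone that difference did not pass the test (odds ratio 1.19, adjusted exact p = 0.231). Peaks of at least 1000 bp made up 35.9% downstream and 28.7% upstream (odds ratio 1.39, adjusted exact p = 0.00464), beside 44.9% of all peaks. With the distance limits moved to 2 to 10 kb, this odds ratio was 1.20 and the adjusted exact p 0.181. Coding exons held 38.2% of midpoints downstream and 10.9% upstream, where 60.3% were intergenic. That contrast follows from the side of the TSS by which the peaks were chosen, and the differences in copy number and CpG content moved with it. Within introns, 48.7% of downstream and 43.5% of upstream peaks were multi-copy, and 28.9% and 28.2% were CpG-island-like. Among intergenic peaks, 64.8% and 63.2% were multi-copy, and 21.3% and 22.6% were CpG-island-like. In coding exons, 3.36% and 5.97% were multi-copy, and 61.5% and 56.7% were CpG-island-like. The differences within features were not tested.

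The other classes lay to either side. Peaks within 1 kb of a TSS, 5416 in number, were multi-copy in 2.62% and CpG-island-like in 94.0%, with odds ratios of 16.5 (adjusted exact p = 8.29e-139) and 0.0472 (adjusted exact p = 1.53e-267) for downstream against these peaks. Peaks more than 10 kb away, 7193 in number, were multi-copy in 81.2% and CpG-island-like in 10.7%, with odds ratios of 0.103 (adjusted exact p = 3.05e-195) and 6.14 (adjusted exact p = 4.95e-106). The classes were set by distance from the TSS, and within the downstream peaks both shares already moved with that distance. The tests also counted peaks of 1 repeat family as independent, which they are not. Widths of at least 1000 bp were less frequent downstream than within 1 kb, where 55.9% were so wide (odds ratio 0.442, adjusted exact p = 2.24e-27). With a width limit of 1500 bp that odds ratio was 0.834 (adjusted exact p = 0.112). Against the distal peaks, of which 39.1% were so wide, the difference did not pass the test (adjusted exact p = 0.069, interval from -6.58 to 0.214 percentage points). The same odds ratio, 0.871, passed the test at 0.842 with peaks of at least 500 bp (adjusted exact p = 0.027) and at 0.749 with limits of 2 to 10 kb (adjusted exact p = 0.000882). With single-copy peaks alone it turned to 2.59 (adjusted exact p = 1.76e-18). Chromosome X carried 2.45% of the downstream peaks and 0.443% of those within 1 kb (odds ratio 5.65, adjusted exact p = 3.19e-07). Among single-copy peaks that odds ratio was 2.83 (adjusted exact p = 0.0882). Against the upstream peaks (1.62% on X) no difference was detected (adjusted exact p = 0.45, interval from -0.748 to 2.30 points).

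**Figure D4:**
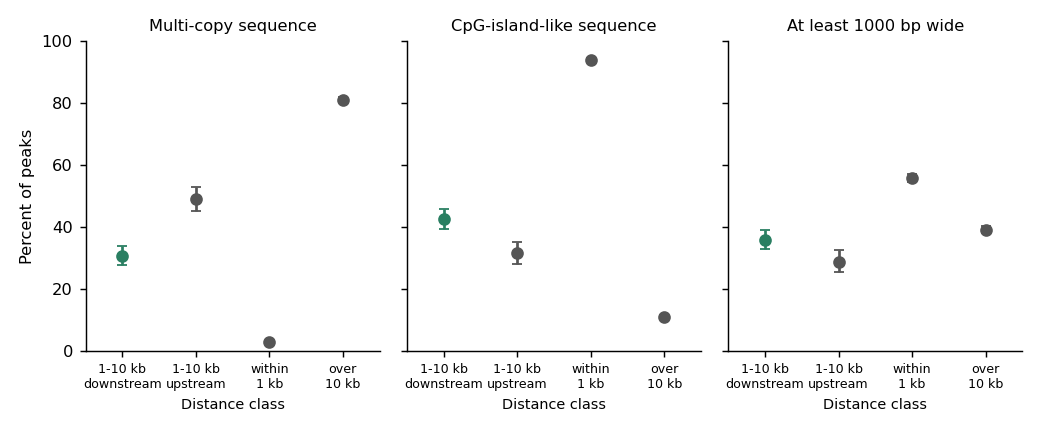
Percent of peaks (vertical axes) that were multi-copy, CpG-island-like or at least 1000 bp wide in 4 distance classes, with 95% Wilson intervals, which are smaller than the points for the larger classes. The downstream peaks, in green, lie between the peaks within 1 kb and those over 10 kb in the first 2 panels, at 30.7% and 42.5%.

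An alternative promoter can place a TSS near a peak that is far from the assigned one. An annotated TSS of any transcript lay within 1 kb of 160 midpoints (18.7%), and 110 of these had a TSS of the assigned gene itself. A TSS of another protein-coding gene was near 39, and one of another noncoding gene near 23. These counts also matched symbols as written, so an older name, such as ORF61 for Tmem259, counted as another gene. The 110 is therefore too low, by a number that was not determined. Of the 160 peaks, 68.8% were CpG-island-like, against 36.5% of the 696 without such a TSS. The share with a TSS did not differ detectably from the 17.0% of upstream peaks (adjusted exact p = 0.45, interval from -2.34 to 5.57 points). The assigned gene also had a peak within 1 kb of its own TSS for 200 of 780 gene names with downstream peaks alone (25.6%) and for 132 of 564 with upstream peaks alone (23.4%). That difference was not detected either (adjusted exact p = 0.45, interval from -2.46 to 6.82 points).

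The peaks were assigned to 811 gene names, of which 772 had 1 peak. In all, 765 peaks were assigned to protein-coding genes, 41 to lncRNA genes and 31 to microRNA genes. Crlf2, a cytokine receptor subunit, had the most, with 4 peaks between 2794 and 7811 bp. Its peak at 3645 bp was centred in exon 7, the one at 2794 bp in intron 4, and the other 2 beyond the gene. Each of 4 genes had 3 peaks. They were Bbc3 (a BH3-only inducer of apoptosis, also called Puma), Cyp26b1 (an enzyme that degrades retinoic acid), the homeobox gene Hoxb3, and Prr12. The 3 Bbc3 peaks lay at 2688, 4307 and 7900 bp, and Bbc3 also had a peak within 1 kb of its TSS. The 3 Cyp26b1 peaks, at 4637, 5131 and 5944 bp, were single-copy and CpG-island-like, and each lay within 1 kb of an annotated Cyp26b1 TSS. The 3 Prr12 peaks were all in coding exons, with CpG ratios from 0.267 to 0.420. The Cyp26b1 peaks lay side by side, as did 2 of Prr12 and, in 2 pairs, the 4 of Crlf2. These counts need not be separate binding sites. The Hoxb3 peaks at 6574 and 9823 bp were measured from 1 TSS and the peak at 2096 bp from another Hoxb3 TSS. The one at 6574 bp was multi-copy with 12 copies. Of the genes with 2 peaks, the first in alphabetical order were 2310011J03Rik, Ap5b1, Bahcc1, Bpifb4 and Caps2. The Caps2 peaks were multi-copy (12253 and 183.5 copies), and the others were single-copy.

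Gene lists were then counted against a background in which 722 of 21900 protein-coding genes (3.3%) had a downstream peak. Many listed genes also had Isl1 peaks of other distance classes. A peak of any class was assigned to 37.5% of all protein-coding genes, and to 77.1% of the cardiac and 74.2% of the non-cardiac transcription factors. It was also assigned to 82.6% of the Polycomb and histone-modifying list, 66.2% of the matrix list and 23.3% of the housekeeping list. For the sarcomere list this share was 50%, for SWI/SNF subunits 64% and for semaphorins, ephrins and related genes 73.9%. The signalling lists ranged from 70.9% (BMP, TGF-beta and Nodal) to 82.1% (Wnt). Among 48 cardiac transcription factor genes, 10 had a downstream peak (20.8%, interval 11.7% to 34.3%). All 10 peaks were CpG-island-like, 9 were centred in coding exons, and their median width was 1122.5 bp. An annotated TSS lay within 1 kb of 3 of them, the Irx3, Sall4 and Tbx3 peaks. Nkx2-5, a homeodomain factor of early cardiac cells, had a peak at 2256 bp in exon 2 with a CpG ratio of 0.905. Gata4, a zinc finger factor that works with it, had a peak at 4397 bp in exon 2 with a ratio of 0.720. Tbx1, the T-box factor of the second heart field, had a peak of 1402 bp at 4623 bp in exon 7, and its CpG ratio was 1.00. The repressors Tbx2 and Tbx3, which mark the atrioventricular canal and conduction system, had peaks at 5622 and 9400 bp. Irx3 and Irx5, Iroquois factors of the ventricle, had peaks at 1069 and 2520 bp, of which the Irx3 peak was multi-copy with 2 copies. Foxc1, a forkhead factor of the outflow tract, had a peak at 1564 bp, and the helix-loop-helix repressor Bhlhe41 had one at 2104 bp. Sall4, a zinc finger factor shared with pluripotent cells, had a peak at 1164 bp, the only one of the 10 in an intron.

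The transcription factors of neural and other non-cardiac lineages had peaks at a like share, 20 of 93 genes (21.5%, interval 14.4% to 30.9%). CpG-island-like sequence was found in 20 of their 21 peaks, and 14 were centred in coding exons. Barhl1 and Barhl2, homeodomain factors of neurons, had peaks at 6813 and 9818 bp. Dlx2, a forebrain homeodomain factor, had one at 2203 bp in exon 3, and Foxd3, a neural crest factor, one at 1396 bp in exon 1. Downstream peaks at transcription factor genes were thus found in lists of cardiac and of non-cardiac factors, and the intervals of the 2 shares overlap.

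Among signalling pathways, the Notch list had 7 of 35 genes (20.0%, interval 10.0% to 35.9%). Its effectors Hes1, Hes3, Hes7 and Heyl had peaks at 5115, 8408, 2203 and 6286 bp, but the Hes3 peak was centred in a coding exon of Gpr153. The FGF, Hedgehog and retinoic acid lists together had 8 of 61 genes (13.1%, interval 6.80% to 23.8%). They included Cyp26b1 and Cyp26c1, which degrade retinoic acid, and Dhrs3, which lowers the supply of its precursor. The Cyp26c1 peak lay at 1801 bp in intron 3, the Dhrs3 peak at 2689 bp was multi-copy with 3 copies, and Dhh, a Hedgehog ligand, had a peak at 4303 bp in exon 3. The BMP, TGF-beta and Nodal list had 5 of 55 (9.09%, interval 3.95% to 19.6%). Its Gdf1, a ligand, and Inhbb, an activin subunit, had peaks at 1442 and 1108 bp, the BMP target Id1 one at 3192 bp, and the inhibitory Smad6 one at 1312 bp. The Wnt list had 6 of 67 (8.96%, interval 4.17% to 18.2%). Its receptor Fzd8 and nuclear effector Tcf7l2 had peaks at 1139 and 1163 bp. Of the ligands, Wnt1 had an intergenic peak at 7876 bp and Wnt10a an intronic one at 2733 bp.

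The remaining lists had from 0 to 3 genes with a downstream peak, and no test compares 1 list with another. The SWI/SNF list, subunits of the Brg1 remodelling complex, had 2 of 25 genes (8%, interval 2.22% to 25.0%). Dpf1, a neuronal subunit, had a CpG-island-like peak at 3966 bp, and Smarcd1 a multi-copy peak (2 copies) at 6001 bp in intron 9. Of 46 Polycomb, histone-modifying and DNA methylation genes, Jarid2 and Nsd1 had peaks, at 2369 and 1576 bp. The sarcomere, contraction and calcium handling list had 1 of 50 (2%, interval 0.354% to 10.5%). A peak of any distance class was assigned to 25 of these 50 genes. Semaphorins, ephrins and related guidance genes had 3 of 69, namely Epha3, Sema6c and Slit2. The collagen, laminin, integrin and matrix list had 0 of 68, which allows a share of up to 5.35% by the Wilson interval. Housekeeping genes had 1 of 30, Ywhaz.

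**Figure D5:**
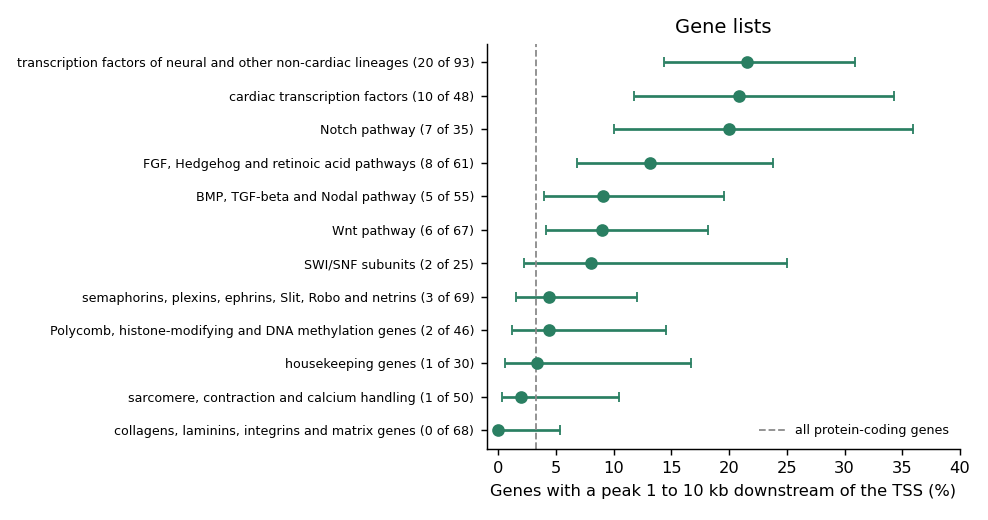
Percent of the genes of each list with a peak 1 to 10 kb downstream of the assigned TSS (horizontal axis), with 95% Wilson intervals and the counts beside the list names. The dashed line is the 3.3% of all protein-coding genes. The intervals of the 2 transcription factor lists and of 4 signalling lists lie above it. In these lists a peak of any class was also more frequent than the 37.5% of all protein-coding genes.

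Across the 12 lists, 68 peaks belonged to listed genes. CpG-island-like sequence was found in 56 of them (82.4%), 35 were centred in coding exons and 5 were multi-copy. An annotated TSS lay within 1 kb of 20 of them. Of the other 788 downstream peaks, 39.1% were CpG-island-like, 292 were centred in coding exons, 258 were multi-copy and 140 had such a TSS. The lists were assembled with earlier results of these data known, so these counts are a description.

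Short sequence strings were searched for, on either strand, in the central 200 bp and in the flanking windows described above. The LIM-homeodomain string is a strict form and stands for only part of the sites that Isl1 can bind. It does not match the CTAATTA in the Isl1-binding oligo used as specific competitor in the study's binding assays. Its counts are therefore not counts of all Isl1 sites. The LIM-homeodomain string (CTAATTG or CTAATGG) occurred in 3 of 856 centres (0.350%, interval 0.119% to 1.03%). It occurred in 2.45% and 1.52% of the 2 flanks, in 0.412% of all peak centres and in 2.82% of the central 200 bp of 32851 mouse promoters. Centres held it less often than flanks (ratio 0.176, exact McNemar test, two-sided, adjusted exact p = 0.0236 over 10 strings). Among single-copy peaks alone the ratio was 0.240 and did not pass the test (adjusted exact p = 0.162), and over all alternatives the adjusted exact p ran from 0.000554 to 0.344. Its reversed control was also rarer in centres than in flanks, at 0.117% against 1.52% and 1.75% (adjusted exact p = 0.00262). All 3 peaks with the string were single-copy, and none was CpG-island-like. They are printed as 60 bp of mm9 plus-strand sequence, with the string in capitals.
Ap5b1, chr19:5570451-5570510, plus strand: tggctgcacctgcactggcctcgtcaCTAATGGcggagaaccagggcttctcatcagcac
Bloc1s4, chr5:37132739-37132798, plus strand: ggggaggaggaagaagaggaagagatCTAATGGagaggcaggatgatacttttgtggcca
Asb16, chr11:102137975-102138034, plus strand: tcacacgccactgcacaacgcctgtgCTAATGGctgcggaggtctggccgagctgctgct
The Ap5b1 peak lay at 2367 bp, in coding sequence annotated to Gm962, an older symbol of Ap5b1. The Bloc1s4 peak was intergenic at 7204 bp, with a CpG ratio of 0.0876. The Asb16 peak was in exon 3 at 7817 bp.

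The GATA string (AGATAA or AGATAG or TGATAA or TGATAG) was likewise rarer in centres, at 5.61% against 25.4% in either flank and 21.4% of promoters (adjusted exact p = 1.54e-28). Its reversed control was at 3.74% against 22.3% and 23.8%. The CCAAT box (CCAAT) was at 9.81% against 23.7% and 23.5% (adjusted exact p = 7.70e-14). GC-rich strings showed the opposite order. The GC box (CCGCCC), which Sp and Klf factors bind, was in 33.1% of centres and in 9.11% and 6.66% of flanks, beside 31.05% of promoters (adjusted exact p = 8.67e-34). It was in 50.3% of the CpG-island-like centres and 20.3% of the others. The palindromic string of the factor NRF1 was in 2.45% of centres against 0% and 0.234% of flanks (adjusted exact p = 0.000132). The ETS string (CCGGAAG) was in 4.56% against 1.64% and 1.17% (adjusted exact p = 0.00134), but among single-copy peaks alone it did not pass the test (adjusted exact p = 0.185). The E-box of the form CAGCTG, which many tissue-specific helix-loop-helix factors bind, was in 14.0% against 9.93% and 9.46% (adjusted exact p = 0.0114). In the central 100 bp its ratio of centres to flanks was 1.10 (adjusted exact p = 0.744), and with protein-coding genes alone 1.36 (adjusted exact p = 0.052). The TALE string (TGACAG), of the kind Meis and Pbx factors bind, was in 9.70% against 13.7% and 12.7% (adjusted exact p = 0.0506). The direction of each of these differences goes with the base composition of the string, and centres and flanks differed in mean GC content as given above. The part of base composition in these counts was not tested.

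Against the upstream peaks at the same distances, 0 of the 10 strings passed the two-sided Fisher exact test after adjustment, and 1 had an unadjusted p under 0.05. That was the E-box, at 14.0% downstream and 9.89% upstream (unadjusted exact p = 0.0195, adjusted exact p = 0.195, interval from 0.741 to 7.40 points). For the GC box the shares were 33.1% and 32.7%, and the interval ran from -4.56 to 5.14 points. For the GATA string they were 5.61% and 5.67%, with an interval from -2.57 to 2.28 points.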

How the data were processed

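Sample titles gave 2 Isl1 ChIP replicates and 1 input. The study's methods state alignment to mm9 (bowtie2), removal of duplicate reads (Picard 1.136), peak calling (MACS14), removal of blacklisted regions, and retention of areas shared by the replicates (bedtools 2.15), after which the closest TSS was assigned to each peak. The 1 list the authors deposited gave peak positions and signed distances in bp, a unit that is neither a count nor a score. Identical lines were counted once, which left 14082 of 14165. The peak starts may count from 0 or 1, so they are uncertain by 1 bp. The sequence was the NCBI m37 assembly (mm9), the genes GENCODE M1, and the gene classes a RefSeq table of GRCm38, which matched 855 of 856 peaks. Promoter sequences were those of RefSeq (GRCm38.p6).

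Multi-copy status used 31-base words in the central 200 bp on both strands. Shares carry 95% Wilson intervals and differences Newcombe intervals. Two-sided Fisher exact tests were adjusted by Benjamini-Hochberg over 9 comparisons of sequence and width and over 4 of TSS, gene and chromosome X. Centres and flanks were compared by the exact McNemar test, taking the larger p of the 2 flanks, with adjustment over 10 strings. The threshold was 0.05. The tests were run in Python 3.11.15 with scipy 1.17.1 and tested on simulated data. The members, gene lists and tests were chosen with earlier results of these data known. Genes were named if they belonged to a list (all for the cardiac, sarcomere and SWI/SNF lists, otherwise the first 4 in alphabetical order, or all where there were fewer), had most peaks (10 genes), had the 3 widest peaks, lay at a distance limit, or held the LIM-homeodomain string in a single-copy peak. Items chosen this way are in part not reported here. Alternatives were peaks of at least 500 bp, peaks merged across gaps of up to 1000 bp, single-copy peaks alone, other distance limits, protein-coding genes alone, and other limits for each measure. The merged signal track was not analysed here.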

Additional observations from a re-analysis of the deposited data

Results flagged for a closer look

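Of the downstream peaks, 7 were written on more than 1 line of the list, with all values alike, and were counted once. The repeated lines lie outside the comparisons above. Their median width was 2017 bp, while that of the other downstream peaks was 845 bp. Whether that differs beyond counting error was not tested.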

How the results depend on the processing

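The replicates could not be left out in turn, since they were combined into 1 list. No paired analysis was possible because the samples have no separate values and none is tested against another. Of 366 alternative values for 50 results, 301 kept direction and side of the threshold or moved little. Of the rest, 16 no longer passed the threshold (called weaker), 7 newly passed it (stronger), 18 moved and 24 reversed. The LIM-homeodomain control against upstream centres, where 0 peaks held it, gave no finite odds ratio and is not counted. The alternatives for coding exons against introns were chosen after seeing the data, and each kept its direction and passed the threshold. Fewer peaks enter by construction with single-copy peaks and other distances. For the other changes the cause was not tested.

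With limits of 1 to 5 kb there were 498 peaks, 24.5% of them multi-copy, and 435 protein-coding genes. The multi-copy share was 35.2% at 2 to 10 kb and 20.9% with a minimum of 10 copies. The odds ratio of CpG-island-like sequence against upstream peaks was 1.19 with single-copy peaks. That of wide peaks against upstream peaks was 1.20 at 2 to 10 kb, and against TSS peaks 0.834 with a width limit of 1500 bp. Against distal peaks it was 0.842 with peaks of at least 500 bp and 0.749 at 2 to 10 kb, both past the threshold, and it reversed to 2.59 with single-copy peaks, 1.06 at 1 to 5 kb and 1.18 with 1500 bp. For an annotated TSS near the midpoint it reversed to 0.900 with single-copy peaks, 0.967 at 2 to 10 kb and 0.917 with a TSS within 500 bp. For a peak at the TSS of the same gene it reversed to 0.925 at 1 to 5 kb, and for chromosome X against TSS peaks it was 2.83 with single-copy peaks.

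For strings in centres against flanks, the ratio for the LIM-homeodomain string was 0.200 with peaks of at least 500 bp, 0.240 with single-copy peaks, 0.273 at 2 to 10 kb and 0.133 in the central 100 bp, none past the threshold. Its reversed control, at 0.0714 in the main analysis, no longer passed the threshold at 0 (1 to 5 kb), 0.111 (central 100 bp) and 0 (CpG-island-like peaks). ETS was weaker at 2.00 (single-copy peaks), 2.43 (central 100 bp) and 2.67 (CpG-island-like peaks), and the E-box at 1.36 (protein-coding genes) and 1.10 (central 100 bp). TALE passed at 0.738 after merging, 0.645 with single-copy peaks and 0.522 in CpG-island-like peaks. Against upstream centres, the GATA control passed at 0.432 with single-copy peaks and 0.335 in the central 100 bp.

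The other reversed odds ratios against upstream centres did not pass the threshold. GATA was 1.02 at 2 to 10 kb and 1.63 in CpG-island-like peaks. The GC box was 0.998 with peaks of at least 500 bp, 0.908 with single-copy peaks, 0.863 at 1 to 5 kb, 0.992 with protein-coding genes, 0.895 in the central 100 bp and 0.680 in CpG-island-like peaks. CCAAT was 1.04 with peaks of at least 500 bp and 1.11 at 2 to 10 kb. ETS was 1.38 with single-copy peaks, 1.05 at 1 to 5 kb and 1.62 in CpG-island-like peaks. The E-box was 0.988 in the central 100 bp. TALE was 1.12 with single-copy peaks, 1.07 at 2 to 10 kb and 1.10 at 1 to 5 kb.

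Counts of listed genes moved as peaks were removed. Sarcomere genes numbered 0 with peaks of at least 500 bp, with single-copy peaks and at 1 to 5 kb, and SWI/SNF genes 1 with single-copy peaks and at 1 to 5 kb. At 2 to 10 kb there were 1 Polycomb, 3 Wnt, 1 BMP, 12 non-cardiac transcription factor and 0 housekeeping genes. At 1 to 5 kb there were 3 Notch, 4 FGF, Hedgehog and retinoic acid, and 1 guidance gene. Since the depth is unknown, absence from the list does not show absence of binding.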
